A study of Mus musculus with 20 samples.

Results

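Type I interferon stimulated genes were followed across 20 RNA-seq libraries of CD31-sorted cells from E0771 tumours. The set holds 38 genes, given as a fixed list of symbols and matched through Ensembl gene IDs, of 46983 gene IDs in each deposited table. All 38 were found and all 38 passed the filter on low counts. No value of these libraries served in the rule, but the list was drawn up with earlier results of the data known.

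E0771 is a mammary carcinoma line from the mouse. CD31, encoded by Pecam1, marks endothelial cells, which line blood vessels. Per the labels' protocols, tumour cells were placed in the mammary fat pad of the C57BL/6J mice listed next, and tumours were taken at 500 mm3. CD31-positive cells were enriched with beads and then sorted. The submitters class 3 host backgrounds as competent for CD4 T cells. These are CD8KO (n = 3), wild type (WT, n = 4) and Tie2Cre (n = 3). Tie2Cre is a host with Cre recombinase under the Tie2 promoter, which is active in endothelial and also in blood cells. The deficient class holds TCRKO (n = 3), named for loss of the T cell receptor, CD4KO (n = 3) and Tie2Cre_H2Abf (n = 4). The last carries Tie2Cre with a floxed allele of H2-Ab1, the beta chain of an MHC class II molecule, given as Tie2Cre;H2Ab fl/fl. Ages and sexes of the hosts are not given in the sources used here. Whether the libraries of a group are from different animals is not stated, and the spread behind the p-values may thus be technical.

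Type I interferons (the interferon-alpha family and interferon-beta) bind the receptor made of Ifnar1 and Ifnar2. The kinases Jak1 and Tyk2 then pass the signal to the complex ISGF3, which contains Stat2 and Irf9. ISGF3 binds the interferon-stimulated response element (ISRE) of target genes, many of which encode sensors and blockers of viruses. Interferon-gamma, made mainly by T and NK cells, signals through another receptor, acts on genes with a GAS element, and induces guanylate-binding proteins, chemokines and antigen presentation genes. The target sets of both interferons overlap in part. Endothelial cells carry both receptors.

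Total expected counts ran from 1543892 to 11478923 a library (median 7531951), and the 38 genes together had from 1865 counts in WT_9771 to 59443 in CD8KO_9752. Libraries are named by background and label number. In WT_9771 and Tie2Cre_9501, 47.1% and 19.7% of counts lay in satellite-like gene models, against at most 2.53% elsewhere. A level of 3 counts corresponded to 0.128 to 2.46 CPM, the count scaled by the TMM-adjusted library size. Endothelial markers were high in every library (10 of 10 with a median of at least 1 CPM, summed CPM 2140 to 6781). All 10 macrophage markers were also detected, with summed CPM from 82.5 to 640, whereas plasmacytoid dendritic cell markers, whose cells are a main source of type I interferon, summed to at most 25.4 CPM and 4 of 5 were at 0 in at least 10 libraries. H2-Ab1 stood at 0.712 to 6.37 CPM in Tie2Cre_H2Abf and at 25.4 to 96.1 CPM in Tie2Cre. Cd8a stood at 39.0 to 69.7 CPM in the libraries labelled CD8KO and at no more than 2.94 CPM in any other. Trac stood at 0 to 0.213 CPM in the same CD8KO libraries. RNA levels do not show whether the CD8 protein was lost. Why Cd8a RNA was high under this label was not tested, and the group is named by its label only. Cd4 stood at 4.22 to 15.7 CPM in CD4KO and 0.379 to 15.6 in WT, and Trac at no more than 1.78 CPM in any library, so neither checks its label.

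The set has neighbours in the genome (GRCm38). Ifit2, Ifit3 and Ifit1 lie on chromosome 19 between 34550694 and 34650009, Oas2, Oas3 and Oas1a on chromosome 5 between 120730333 and 120907521, and Ifitm2, Ifitm1 and Ifitm3 on chromosome 7 between 140954837 and 141010770. Rsad2 and Cmpk2 lie side by side on chromosome 12, and Parp14, Dtx3l and Parp9 on chromosome 16, where exons of Dtx3l and Parp9 share 458 bases on opposite strands. The library kit does not mark strand, so reads in such an overlap cannot be told apart. The same holds in part for Herc6, which shares 1269 exon bases on its own strand with the gene model Gm45193. It also holds for Ifitm2 (268 bases on its own strand with the protein-coding Gm45717) and for Irf7 (45 bases with Phrf1). Other genes of the set with such overlaps include Rtp4 (296 bases), Ifi35 (290) and Irf9 (123). Ifit3 and Oas1a have near-identical copies, so their counts are uncertain.

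The ISRE core was searched as GAAA, any 2 bases and GAAA on both strands, overlapping matches included, in RefSeq promoter windows of 300 bases (250 before the start, GRCm38.p6). Of the 38 genes 29 had an entry, with 33 promoters. The core was present in 13 of the 33 (39.4%), in 11 of 24 promoters of an interferon-gamma list described below (45.8%) and in 1131 of 32851 promoters overall (3.44%). The GAS core, searched as TTC, any 3 bases and GAA, which reads the same on both strands, was present in 7 of the 33 (21.2%), in 9 of 24 of the interferon-gamma list (37.5%) and in 2726 of 32851 overall (8.30%). The promoters of Rsad2, Ifitm2, Oas3 and Bst2 are shown as examples of a match before the start in genes described below. They are not all such genes, and Isg15 has 3 overlapping matches there. Each line gives the 150 bases before the start, 5′ to 3′ on the gene's strand, with the ISRE core matches in capitals.
Rsad2: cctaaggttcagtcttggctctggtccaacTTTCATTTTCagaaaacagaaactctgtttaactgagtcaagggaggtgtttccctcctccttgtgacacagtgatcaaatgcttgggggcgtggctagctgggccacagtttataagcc
Ifitm2: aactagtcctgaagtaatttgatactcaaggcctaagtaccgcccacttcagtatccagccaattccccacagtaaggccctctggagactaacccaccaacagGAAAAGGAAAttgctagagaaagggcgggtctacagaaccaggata
Oas3: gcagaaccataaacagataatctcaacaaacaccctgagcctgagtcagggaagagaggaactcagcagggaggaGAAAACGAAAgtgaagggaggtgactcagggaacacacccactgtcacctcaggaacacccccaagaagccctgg
Bst2: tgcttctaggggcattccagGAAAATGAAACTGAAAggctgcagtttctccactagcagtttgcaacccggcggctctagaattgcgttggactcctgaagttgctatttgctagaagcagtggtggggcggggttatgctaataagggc
Rsad2 (chr12:26456453-26456602, minus strand) has the match on the other strand, 120 bases before the start. Ifitm2 (chr7:140955962-140956111, minus strand) has it 46 bases before and Oas3 (chr5:120777660-120777809, minus strand) 75 bases before. Bst2 (chr8:71537473-71537622, minus strand) has 2 overlapping matches that begin 130 and 124 bases before its start. In Ifitm3, Ddx58, Eif2ak2 and Ifih1 the matches lay after the annotated start. A match describes letters in this window and not a bound site. Median TPM, a level scaled for transcript length, was 24.2 for the 13 genes with the core and 25.1 for the 16 without.

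Transcripts of the whole set were present in these cells. With the exception of Ifitm1, 37 of 38 genes had more than 3 counts in all 20 libraries. On the per-length TPM scale the most abundant was Ifitm3, with a median of 852 TPM (80.9 to 2952), followed by Lgals3bp at 358 (56.5 to 1197), Ifitm2 at 250 (39.6 to 812) and Irf7 at 188 (32.3 to 1158). These 4 made up 61.1% of the summed mean TPM. Ifitm2 and Ifitm3 block entry of viruses at membranes, Lgals3bp is a secreted glycoprotein that binds galectin-3, and Irf7 is the factor that amplifies interferon-alpha transcription. At the other end stood Mx1 with a median of 4.13 TPM and Ifitm1 with 1.19. Mx1 encodes a GTPase that blocks influenza virus, and C57BL/6 mice carry a defective allele of it. Deposited TPM were highest in CD8KO_9752 for 31 of 38 genes and lowest in WT_9771 for 26 of 38. On the CPM scale CD8KO_9752 was highest for only 3, and its share of counts in protein-coding genes, 81.0%, was the top of a range that began at 12.8%. TPM were therefore used to order genes and CPM to compare libraries.

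**Figure D1:**
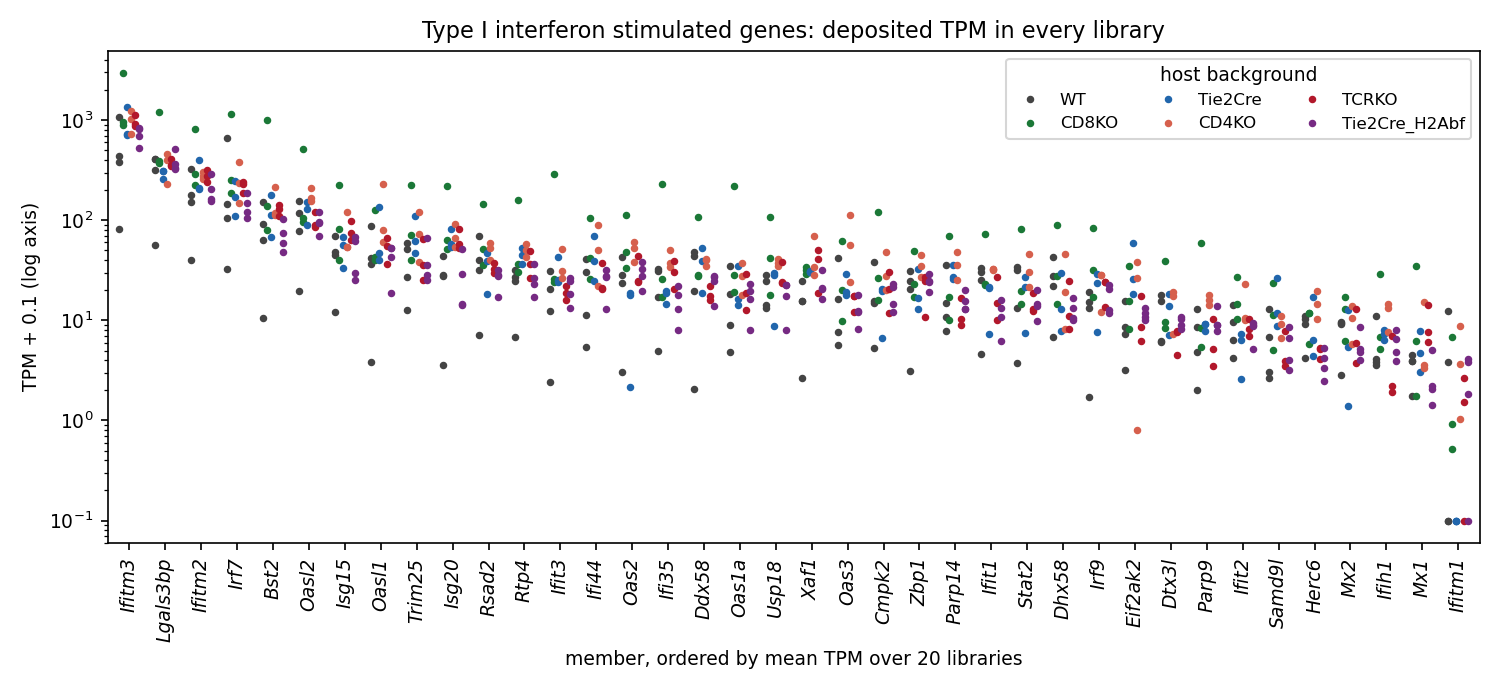
Deposited TPM plus 0.1 (log axis) of the 38 genes in every library, 1 point a library, coloured by host background and ordered by mean TPM. Ifitm3 stands highest and Ifitm1 lowest, and a single CD8KO library gives the top point of most genes.

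Among the sensors, Ddx58 (the RNA helicase RIG-I) had a median of 60.9 CPM, Ifih1 (another RNA helicase, MDA5) 22.8, Dhx58 (their regulator) 22.2 and Zbp1 (a sensor of Z-form nucleic acid) 27.7. Ddx58 read 80.3, 60.1, 16.4 and 66.4 CPM in WT, 59.7, 49.2 and 83 in CD8KO and 20.1, 83.6 and 115 in Tie2Cre. It read 61.8, 80.2 and 62.8 CPM in CD4KO, 36.3, 54.5 and 52.1 in TCRKO and 46.7, 62.7, 50.2 and 97.4 in Tie2Cre_H2Abf. CD4KO lay above TCRKO, the other pairs of groups overlapped, and the low values of WT and Tie2Cre were those of the satellite-rich libraries. Zbp1 read 30.8, 63.3, 10.7 and 24 CPM in WT, 27.7, 14 and 29 in CD8KO and 12.5, 19.5 and 19.4 in Tie2Cre. In the deficient backgrounds it read 43.7, 46.4 and 27.7 in CD4KO, 25.2, 13.1 and 24.3 in TCRKO and 49.2, 47.9, 31.7 and 52.6 in Tie2Cre_H2Abf. Zbp1 was thus higher in every Tie2Cre_H2Abf library than in any Tie2Cre library.

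Of the transcription factors, Irf7 read 629, 208, 110 and 134 CPM in WT, 256, 354 and 256 in CD8KO, and 106, 252 and 145 in Tie2Cre. In the deficient backgrounds it read 174, 247 and 273 in CD4KO, 244, 253 and 279 in TCRKO, and 176, 275, 126 and 264 in Tie2Cre_H2Abf. A single WT library, WT_9748, held the highest value of all, and the 3 TCRKO libraries lay close together. Irf9 and Stat2, both parts of ISGF3, had medians of 32.3 and 64.1 CPM, and their lowest values, 6.56 and 20.8 CPM, lay in WT_9771 and Tie2Cre_9501.

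The RNA-binding and nucleic acid effectors formed the largest role with 11 genes. Ifit1, Ifit2 and Ifit3 bind viral RNA, the Oas enzymes make the messenger that activates RNase L, Eif2ak2 (PKR) stops translation on sensing double-stranded RNA, and Isg20 is an RNA exonuclease. Oasl2, the most abundant per length of these, was also the steadiest. It read 134, 171, 62.3 and 177 CPM in WT, 133, 192 and 134 in CD8KO, 86.4, 172 and 150 in Tie2Cre, 162, 174 and 149 in CD4KO, 133, 150 and 105 in TCRKO and 146, 145, 149 and 196 in Tie2Cre_H2Abf. The groups overlapped throughout. Oas2 had the widest spread of group means of all 38 genes, 2.18 on the log2(CPM + 1) scale. It read 61.6, 181, 19.7 and 51.3 CPM in WT, 120, 77.3 and 112 in CD8KO, 4.55, 48.7 and 43.2 in Tie2Cre, 143, 82.5 and 80.0 in CD4KO, 116, 86.6 and 60.3 in TCRKO and 89.8, 133, 71.7 and 131 in Tie2Cre_H2Abf. Its 3 Tie2Cre values lay below those of CD8KO, CD4KO, TCRKO and Tie2Cre_H2Abf, and 2 of them lay within the range of WT.

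Isg20 read 15.9, 21.7, 4.10 and 9.65 CPM in WT, 20.5, 21.3 and 35.6 in CD8KO and 29.9, 24 and 20.2 in Tie2Cre. In the deficient backgrounds it read 40.8, 26.2 and 14.1 in CD4KO, 33, 35.3 and 27.5 in TCRKO, and 11.3, 29.1, 5.16 and 19.7 in Tie2Cre_H2Abf. WT held the lowest mean, and TCRKO lay above all WT libraries. Ifit3 read 31.8, 25.7, 8.20 and 20.3 CPM in WT, 28.1, 80.3 and 34.8 in CD8KO, 23.9, 28.6 and 40.7 in Tie2Cre, 27.7, 31.3 and 36.9 in CD4KO, 24.5, 23.9 and 23.6 in TCRKO and 25.3, 27.3, 25.6 and 45.5 in Tie2Cre_H2Abf. A single CD8KO library, CD8KO_9752, stood above the rest. Ifit2 read 24.5, 20.8, 54.1 and 34.4 CPM in WT, 6.06, 17.9 and 16.5 in Tie2Cre and 23.4, 33.7, 22.6 and 38.1 in Tie2Cre_H2Abf. Tie2Cre lay below both of the others. Eif2ak2 varied most between libraries of a group, with 162 CPM in Tie2Cre_9501 beside 39.3 and 36.1 in the other Tie2Cre libraries, and 1.96 CPM in CD4KO_9768 beside 59.5 and 43.5 in the other CD4KO libraries.

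Of the GTPases and nucleotide enzymes, Rsad2 (viperin, which makes a chain-terminating nucleotide) had a median of 102 CPM and read 175, 158, 59.9 and 96.1 CPM in WT, 138, 98.6 and 124 in CD8KO and 44, 109 and 105 in Tie2Cre. It read 129, 98.8 and 106 in CD4KO, 80.8, 134 and 95 in TCRKO and 77.9, 99.4, 71.9 and 136 in Tie2Cre_H2Abf. No background stood apart. Its neighbour Cmpk2, a nucleotide kinase, had a median of 45.9 CPM, while Mx1 and Mx2 stood at 9.12 and 7.69.

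Ifitm3, a membrane restriction factor, read 82.1, 223, 85.3 and 250 CPM in WT, the background with the lowest mean. It read 236, 183 and 378 in CD8KO, 185, 195 and 347 in Tie2Cre, 413, 268 and 117 in CD4KO, 255, 353 and 409 in TCRKO and 450, 329, 131 and 277 in Tie2Cre_H2Abf. All 3 TCRKO libraries lay above all 4 WT libraries. Ifitm2 had its lowest and highest group mean in the same backgrounds, WT and TCRKO. Bst2 (tetherin, which holds budding virus at the cell surface) had a median of 38.6 CPM. Ifitm1 was near the detection limit, with 14 counts over the 4 WT libraries, 18 over the 4 Tie2Cre_H2Abf libraries and 0 in Tie2Cre. Its counts were 0, 0, 4 and 10 in WT and 4, 9, 5 and 0 in Tie2Cre_H2Abf, so both groups overlapped with Tie2Cre at 0. Set against a floor of 3 counts over the group, its pooled level was at least 5.08-fold lower in Tie2Cre than in WT. The pooled level was at least 4.68-fold higher in Tie2Cre_H2Abf than in Tie2Cre. These folds do not hold for single libraries, and no fitted change is given for Ifitm1.

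Isg15, the ubiquitin-like modifier of the interferon response, read 13.1, 28, 14.8 and 20.1 CPM in WT, 13.1, 17.5 and 38.6 in CD8KO and 17.4, 11.1 and 20.9 in Tie2Cre. It read 46.9, 16.9 and 10.7 in CD4KO, 21.2, 36.3 and 41.8 in TCRKO and 19.5, 29.1, 7.83 and 33.3 in Tie2Cre_H2Abf. TCRKO lay above Tie2Cre, and the other pairs of groups overlapped. Herc6, the mouse ligase that attaches Isg15, read 20.03, 24.2, 41 and 24.4 CPM in WT, 10.5, 5.25 and 21.1 in CD8KO and 17.1, 7.06 and 5.92 in Tie2Cre. In the deficient backgrounds it read 48.9, 21.9 and 22.9 in CD4KO, 8.01, 16 and 4.55 in TCRKO and 9.74, 19.5, 9.97 and 14.9 in Tie2Cre_H2Abf. All WT and CD4KO values lay above those of TCRKO and of Tie2Cre. Usp18, which removes Isg15 and damps the receptor, had a median of 27.8 CPM. Trim25, a ubiquitin ligase that acts on RIG-I, was at 78.1 CPM and had the narrowest spread of group means in the set, 0.277 on the log2(CPM + 1) scale.

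Parp9 and Dtx3l form a complex that adds ADP-ribose to ubiquitin, and Parp14 is another ADP-ribosyltransferase. Parp14 read 146, 86.4, 100 and 55.1 CPM in WT, 81.6, 64.7 and 54.8 in CD8KO, 104, 107 and 71.4 in Tie2Cre, 130, 106 and 104 in CD4KO, 85.1, 40.4 and 60.3 in TCRKO and 111, 75.5, 89.9 and 86.9 in Tie2Cre_H2Abf. TCRKO overlapped with WT in it. Dtx3l read 48.5, 43.3, 50.9 and 60.6 CPM in WT, 34.2, 36.2 and 39.8 in CD8KO, 24.3, 55.2 and 59.3 in Tie2Cre, 24.9, 59.9 and 49.1 in CD4KO, 28.7, 21.5 and 30.01 in TCRKO and 51.5, 53.3, 37.6 and 53.1 in Tie2Cre_H2Abf. Every TCRKO and CD8KO library lay below every WT library. Of the other 5 genes, Lgals3bp read 589, 880, 284 and 541 CPM in WT, 342, 496 and 396 in Tie2Cre and 857, 673, 472 and 1224 in Tie2Cre_H2Abf. The last 2 groups overlapped in a single pair of libraries. Xaf1, a promoter of apoptosis, Ifi35, Ifi44 and Rtp4, a receptor chaperone, had medians of 17.5, 21.0, 67.6 and 37.7 CPM.

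**Figure D2:**
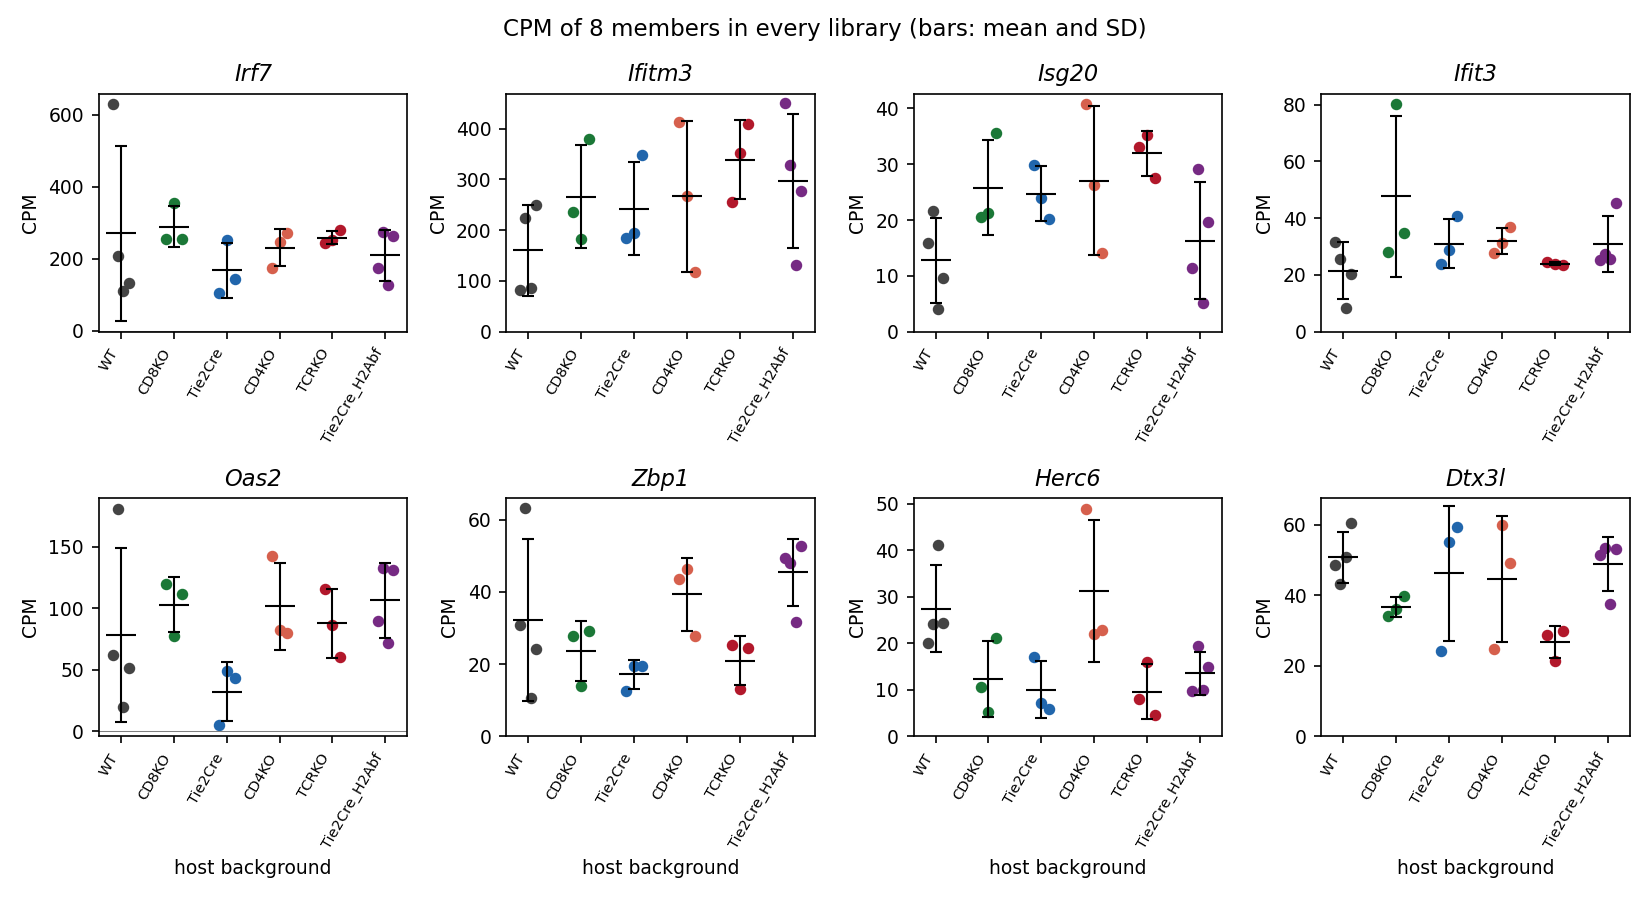
CPM of 8 of the genes in every library by host background, each point a library, with the mean and SD of each background (n = 3 or 4). Isg20 and Ifitm3 in TCRKO lie above WT, Herc6 and Dtx3l in TCRKO lie below it, and Irf7 has a single high WT library.

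Across the set, the range of the 6 group means had a median of 0.95 on the log2(CPM + 1) scale, against a pooled SD within groups of 0.63 (median). The range exceeded that SD for 34 of 38 genes, which is a description, since the range takes the highest and the lowest of 6 means. CD4KO had the highest mean for 12 genes, TCRKO for 9, WT and CD8KO for 5 each, Tie2Cre_H2Abf for 4 and Tie2Cre for 3. Tie2Cre had the lowest mean for 17 genes, WT for 12, TCRKO for 7, and CD4KO and Tie2Cre_H2Abf for 1 each. The satellite-rich libraries of Tie2Cre and WT had the 2 lowest mean levels of the set, 4.65 in Tie2Cre_9501 and 4.79 in WT_9771 (mean log2(CPM + 1)). Without both, Tie2Cre was lowest for 11 genes, TCRKO for 9, Tie2Cre_H2Abf for 7, WT for 6, CD4KO for 4 and CD8KO for 1. CD4KO was then highest for 10. CD4KO_9768 alone held the highest CPM of 13 genes.

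**Figure D3:**
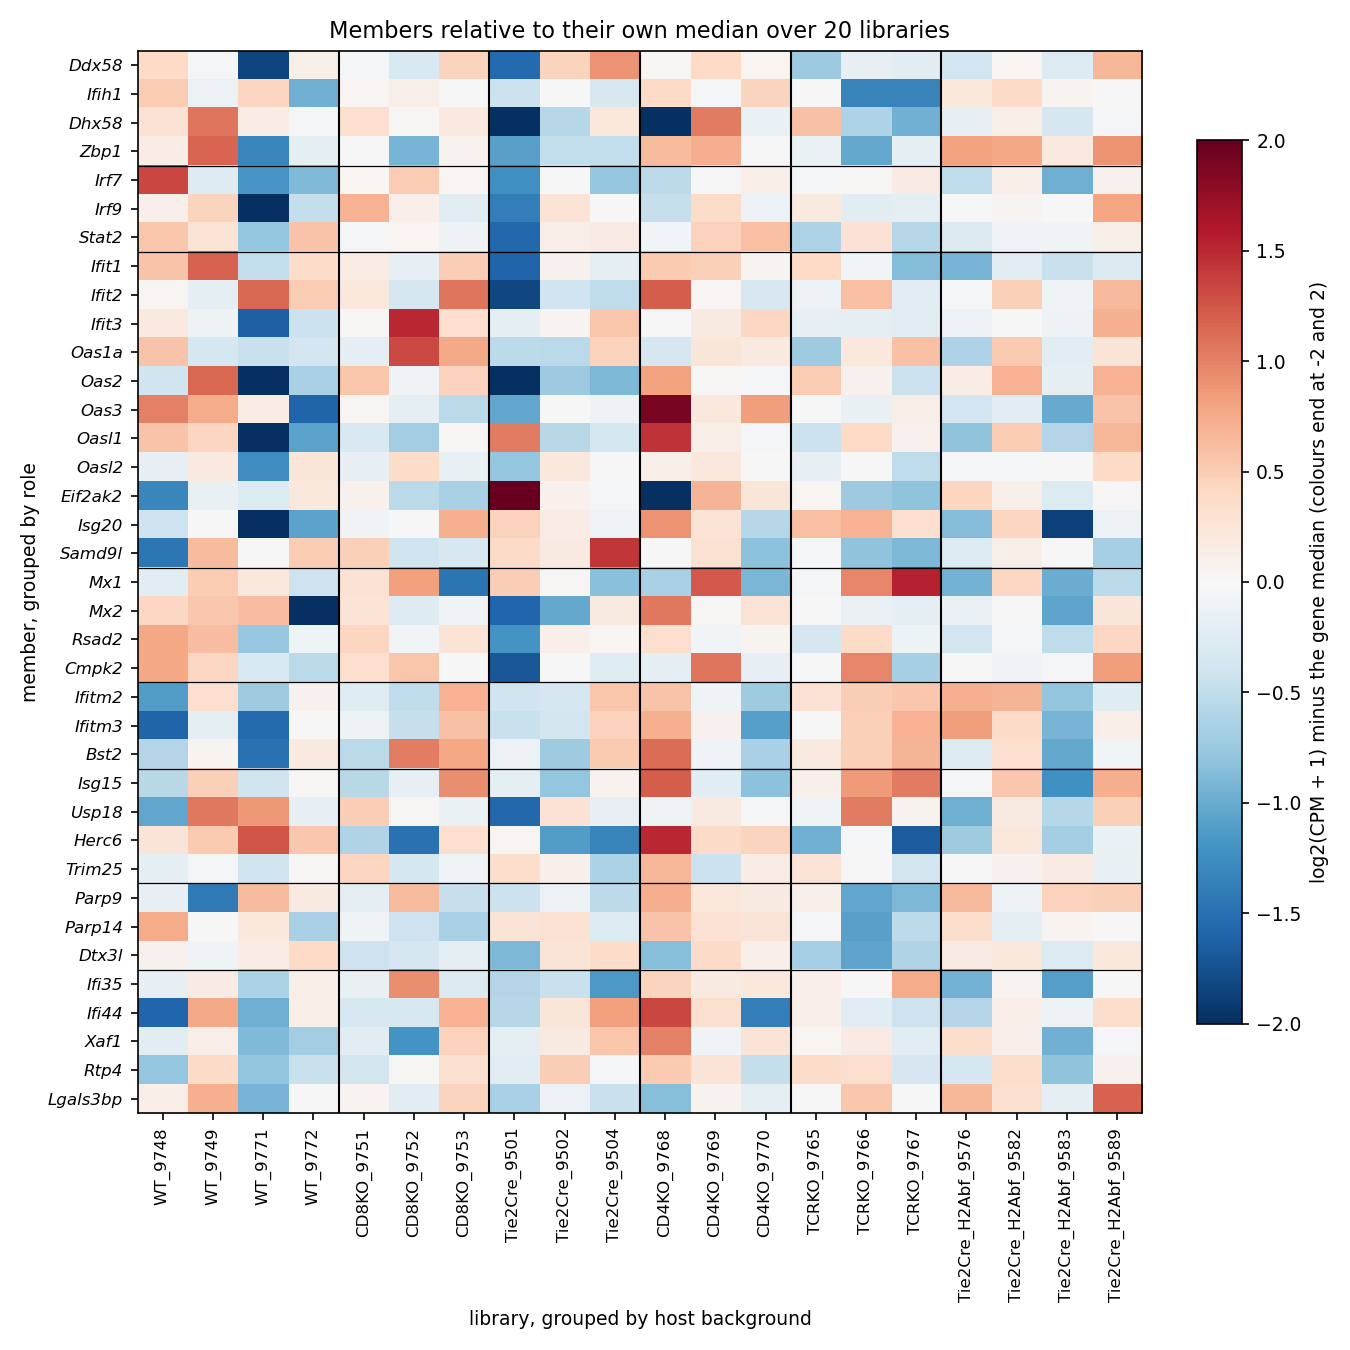
Level of 37 genes (all but Ifitm1) in the 20 libraries as log2(CPM + 1) minus the gene's median over libraries, with colours ending at -2 and 2, rows grouped by role and columns by host background. WT_9771 and Tie2Cre_9501 are low for many genes and CD4KO_9768 is high for many, and no background is uniformly high or low.

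The first comparison asked whether the set differed between hosts classed as deficient and competent for CD4 T cells. It did not pass for any gene. Each class pools 3 host backgrounds, and the 2-group model takes its 10 libraries as replicates of CD4 status. Its SE and p-values thus treat libraries of the same background as independent. By the quasi-likelihood test of edgeR, 0 of 38 genes had an adjusted p under 0.05 (0% of all genes tested did), and 0 had an unadjusted p under 0.05, against 7.26% of all genes tested. DESeq2 also called 0 (0.222% of all genes). The number at an unadjusted p under 0.05 was 1 without CD4KO_9769, CD4KO_9770, CD8KO_9753, WT_9748 or WT_9749. The 4 smallest p belonged to Samd9l, an antiviral factor (log2 change -0.57 ± 0.29 SE, adjusted p = 0.71), Ifitm3 (0.47 ± 0.28, adjusted p = 0.775), Zbp1 (0.52 ± 0.31, adjusted p = 0.781) and Isg15 (0.43 ± 0.32, adjusted p = 0.855). Samd9l read 10.9, 49.04, 31.2 and 45.05 CPM in WT, 44, 23.5 and 24.8 in CD8KO and 41.3, 35.7 and 85.6 in Tie2Cre. It read 31.4, 39.02 and 17.2 CPM in CD4KO, 30.8, 17.5 and 16.4 in TCRKO and 25.8, 34.04, 31.5 and 19.4 in Tie2Cre_H2Abf. Its Tie2Cre values lay above those of TCRKO and of Tie2Cre_H2Abf, and the other pairs of groups overlapped. Of the 38 changes 26 were above 0 and 12 below, with a median of 0.12, while the median of all 14876 genes was -0.11. Without CD4KO_9768 the median was 0.04, without WT_9771 0.08 and without CD8KO_9752 0.20. Label numbers begin with 95 for Tie2Cre and Tie2Cre_H2Abf and with 97 for the others. Among the latter the median was 0.04 with 20 above 0 and 18 below. The difference of the status effect between the 2 number ranges was called for 0 of 38 genes and for 0.00672% of all genes, and had an unadjusted p under 0.05 for 3 of 38 (8.32% of all): Lgals3bp (1.11 ± 0.46, adjusted p = 0.533), Oas2 (1.65 ± 0.75, adjusted p = 0.566) and Zbp1 (1.35 ± 0.63, adjusted p = 0.578).

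The 4 pairwise comparisons with WT share the 4 WT libraries, and Tie2Cre enters both of the last comparisons, so their values are given side by side and are not independent. All 20 libraries were fitted together, and the SE of single genes had medians of 0.50 to 0.51 in each of the 5.

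In CD4KO against WT, 0 genes of the set passed by edgeR (0% of all genes), 0 by DESeq2 (0.946% of all) and 0 at an unadjusted p under 0.05 (8.6% of all). The largest changes relative to their error were in Isg20 (1.04 ± 0.57, adjusted p = 0.604), Xaf1 (0.87 ± 0.53, adjusted p = 0.654), Oas3 (0.80 ± 0.51, adjusted p = 0.659) and Ifitm3 (0.73 ± 0.47, adjusted p = 0.666). Oas3 read 110, 90.6, 59.9 and 17 CPM in WT and 204, 62.8 and 97.3 in CD4KO, and Xaf1 14.9, 19.3, 9.02 and 10.4 against 36.2, 16.6 and 21.2. CD4KO_9768 was the highest library in both. The number of genes with an unadjusted p under 0.05 was 2 without CD4KO_9770, and 1 without WT_9748 or without WT_9749. DESeq2 gave Ifitm1 no adjusted p here and in 3 of the comparisons that follow. In the set 29 genes were above 0 and 9 below, with a median of 0.24 beside -0.08 for all genes. Summed macrophage markers ran from 420 to 580 CPM in CD4KO and from 250 to 640 in WT, and their part in these values was not tested. In bulk samples, fewer cells of a type and less RNA per cell cannot be told apart.

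In TCRKO against WT the smallest p belonged to genes on both sides of 0. By edgeR 0 of 38 genes passed (0.0269% of all genes did), and 4 of 38 had an unadjusted p under 0.05 (8.66% of all). Isg20 (1.29 ± 0.57, adjusted p = 0.562) and Ifitm3 (1.08 ± 0.47, adjusted p = 0.559) were higher in TCRKO. Herc6 (-1.50 ± 0.62, adjusted p = 0.546) and Dtx3l (-0.93 ± 0.41, adjusted p = 0.562) were lower. In these 4 genes the groups did not overlap, so 2 of 38 lay above WT (5.58% of all genes) and 2 of 38 below it (2.1% of all). DESeq2 called 1 of the 38, Dtx3l (log2 change -1.04, adjusted p = 0.0291), and 1.52% of all genes. The number with an unadjusted p under 0.05 by edgeR dropped to 1 without WT_9771, without TCRKO_9766 or without TCRKO_9767, and to 2 without TCRKO_9765. All 4 sensors (median -0.63) and all 3 ADP-ribosylation genes (median -0.65) had a change below 0, and 3 of 4 membrane restriction factors one above 0 (median 0.74), without a call in any of them by edgeR. In the set 18 genes were above 0 and 20 below, with a median of -0.05 beside -0.20 for all genes. That median changed sign among settings (-0.14 to 0.10).

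In CD8KO against WT, 0 genes passed by edgeR (0% of all), 0 by DESeq2 (0.551% of all) and 1 of 38 had an unadjusted p under 0.05 (10.5% of all). This was Ifit3 (1.13 ± 0.47, adjusted p = 0.466), and without CD8KO_9752, its highest library, 0 of 38 genes had such a p. The number was also 0 without WT_9771, 2 without CD8KO_9753 or WT_9772, and 3 without CD8KO_9751, WT_9748 or WT_9749. Next came Herc6 (-1.15 ± 0.61, adjusted p = 0.488), Oas1a (0.87 ± 0.49, adjusted p = 0.519) and Bst2 (0.89 ± 0.51, adjusted p = 0.53). Oas1a read 39.1, 20.2, 18.9 and 19.7 CPM in WT and 22.9, 66.5 and 44.8 in CD8KO, and Bst2 25.3, 40.1, 13.1 and 44.3 against 26.2, 79 and 66.8, with overlap in both. In the set 21 genes were above 0 and 17 below, with a median of 0.10 beside -0.18 for all genes. With RLE scaling in place of TMM the median was -0.10, with 15 above 0 and 23 below, and the median of all genes moved to -0.37.

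Tie2Cre against WT compares libraries that also differ in label number range, so background and number range cannot be told apart. By edgeR 0 genes passed (0% of all), DESeq2 called 0 (0.968% of all) and 5 of 38 had an unadjusted p under 0.05 (6.88% of all). Besides Ifitm1 these were Ifit2 (-1.28 ± 0.54, adjusted p = 0.692), Herc6 (-1.46 ± 0.62, adjusted p = 0.692), Oas2 (-1.28 ± 0.61, adjusted p = 0.721) and, above 0, Eif2ak2 (1.39 ± 0.66, adjusted p = 0.721). Eif2ak2 read 14.2, 33.1, 30.3 and 43 CPM in WT, and of the Tie2Cre libraries only Tie2Cre_9501 lay above that range. Without Tie2Cre_9501, 2 of 38 had an unadjusted p under 0.05. In the set 14 genes were above 0 and 24 below, with a median of -0.17 beside 0.02 for all genes. The median was -0.30 without Tie2Cre_9502 and -0.31 without Tie2Cre_9504. Summed macrophage markers ran from 162 to 279 CPM in Tie2Cre and from 250 to 640 in WT. Of the 10 markers 9 had a change below 0 (median -1.03), and their part was not tested.

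Tie2Cre_H2Abf against Tie2Cre tests the loss of the class II gene in Tie2-lineage cells, with the Cre in both groups. By edgeR 0 genes passed (0.0202% of all), DESeq2 called 0 (0.536% of all) and 5 of 38 had an unadjusted p under 0.05 (8.58% of all), all 5 above 0 (2.68% of all in that direction). Besides Ifitm1 these were Oas2 (1.71 ± 0.62, adjusted p = 0.573), Zbp1 (1.40 ± 0.52, adjusted p = 0.573), Lgals3bp (0.97 ± 0.38, adjusted p = 0.573) and Ifit2 (1.11 ± 0.54, adjusted p = 0.576). Groups did not overlap, with Tie2Cre_H2Abf higher, in 5 of 38 genes (Ifih1, Zbp1, Ifit2, Oas2 and Parp9; 5.27% of all) and, with it lower, in Samd9l alone (3.77% of all). Without Tie2Cre_9501 the number with an unadjusted p under 0.05 was 0, without both satellite-rich libraries it was 4, and it was 3 without Tie2Cre_9504, Tie2Cre_H2Abf_9582 or Tie2Cre_H2Abf_9589. In the set 25 genes were above 0 and 13 below, with a median of 0.18 beside -0.24 for all genes. The median was 0.04 without Tie2Cre_9501 and 0.09 without Tie2Cre_H2Abf_9589, and 0.29 to 0.31 without Tie2Cre_9502, Tie2Cre_9504 or Tie2Cre_H2Abf_9583. Without both satellite-rich libraries 19 were above 0 and 19 below, with a median of 0.00 for both the set and all genes. The difference between this effect and that of TCRKO against WT, which share no library, was called for 0 of 38 genes (0% of all) and had an unadjusted p under 0.05 for 4 of 38 (6.81% of all), among them Zbp1 (2.04 ± 0.72, adjusted p = 0.588), Herc6 (1.96 ± 0.86, adjusted p = 0.671) and Isg20 (-1.88 ± 0.80, adjusted p = 0.671).

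The interferon-gamma list holds 33 genes that share no member with the set, 32 of which were tested (Socs1, a feedback inhibitor, was not). Among its genes are guanylate-binding proteins (Gbp2 to Gbp7), immunity-related GTPases, the chemokines Cxcl9, Cxcl10 and Cxcl11, Irf1 and antigen-processing genes. Class II genes were left out because H2-Ab1 is deleted in a host. Several of its genes also respond to type I interferon. The edgeR test called 0 of the 32 in each comparison, as for the set. In TCRKO against WT it called 1 of them with RLE scaling, with a filter of at least 5 CPM in 3 libraries, and without both satellite-rich libraries, where 9, 9 and 15 of all genes were called.

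Against WT, the list and the set lay apart in TCRKO and CD8KO. In TCRKO the list had a median of -0.91, with 4 genes above 0 and 28 below, and the set -0.05. Of the 32 genes 13 had an unadjusted p under 0.05, all lower (4.67% of all genes in that direction), 9 lay wholly below WT (2.1% of all genes) and DESeq2 called 5 (1.52% of all). Gbp2 read 127, 260, 194 and 230 CPM in WT and 65.8, 62.5 and 29.6 in TCRKO (-1.94 ± 0.40, edgeR adjusted p = 0.103). Wars, a tRNA synthetase induced by interferon-gamma, read 206, 128, 107 and 107 CPM against 31.7, 54.8 and 35 (-1.76 ± 0.45, adjusted p = 0.26). In the libraries labelled CD8KO the list had a median of -0.74, with 5 above 0 and 27 below, and the set 0.10. Of the 32 genes 7 had an unadjusted p under 0.05, all lower (7.96% of all genes in that direction), and DESeq2 called 2 (0.551% of all). Gbp5 read 62.2, 67.1, 36.1 and 21.2 CPM in WT and 24.5, 9.01 and 15.2 in CD8KO (-1.53 ± 0.49, adjusted p = 0.466). Summed macrophage markers were 264 to 635 CPM in TCRKO and 209 to 324 in CD8KO, against 250 to 640 in WT. Of the 10 macrophage markers, 8 had a change below 0 in TCRKO (median -0.42) and 10 in CD8KO (median -0.62). The medians of all genes were -0.20 and -0.18. The 10 endothelial markers had medians of -0.28 in TCRKO (3 above 0, 7 below) and 0.36 in CD8KO (10 and 0). The part of these cell types was not tested.

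In the other comparisons the 2 lists had medians of the same sign, with the widest gap in Tie2Cre_H2Abf against Tie2Cre. In CD4KO against WT the interferon-gamma list had a median of 0.30 (25 above 0, 7 below) beside 0.24 for the set, and in Tie2Cre against WT -0.31 (12 and 20) beside -0.17. Without WT_9748 or WT_9749 the list's median was 0.48 and 0.46 in CD4KO, and -0.08 and -0.17 in Tie2Cre, where it was -0.18 without Tie2Cre_9501. By CD4 status it had 0.33 (28 and 4) beside 0.12, and among the libraries numbered from 97 it had 0.05 (20 and 11) beside 0.04. In Tie2Cre_H2Abf against Tie2Cre the list had 0.77 (26 and 6) beside 0.18. Without both satellite-rich libraries it had 0.67 beside 0.00. In the fit of all libraries 10 of its genes had an unadjusted p under 0.05, all higher (2.68% of all genes in that direction). Cxcl9 read 47.4, 102 and 89.7 CPM in Tie2Cre and 490, 128, 114 and 411 in Tie2Cre_H2Abf (1.84 ± 0.55, adjusted p = 0.573), and Wars 54.2, 131 and 37.7 against 298, 120, 155 and 326 (1.59 ± 0.45, adjusted p = 0.573). Both were highest in Tie2Cre_H2Abf_9576 and Tie2Cre_H2Abf_9589. Summed macrophage markers ran from 82.5 to 552 CPM in that group, against 162 to 279 in Tie2Cre, and their part was not tested.

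**Figure D4:**
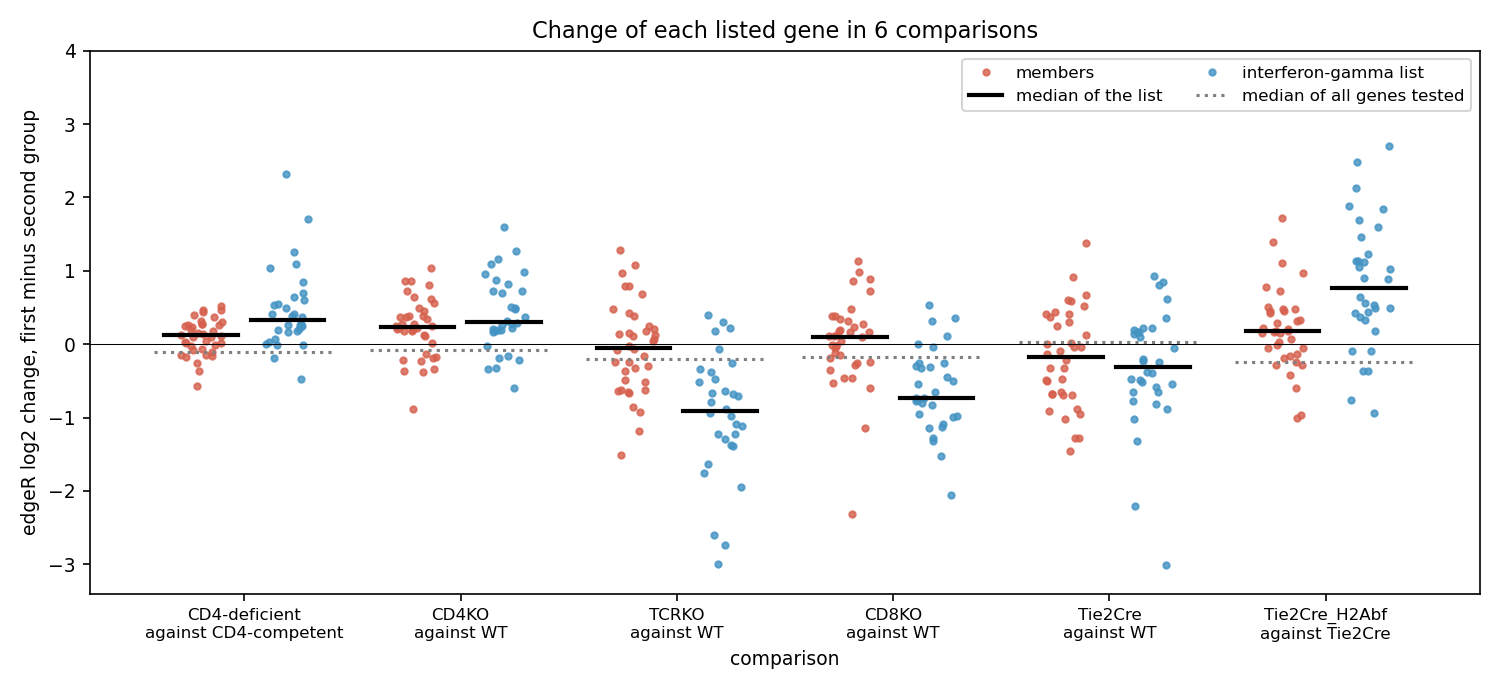
The edgeR log2 change of each gene (points) of the set and of the interferon-gamma list in 6 comparisons, with the median of each list over all its tested genes (bars) and the median of all genes tested (dotted). Genes with 3 or fewer counts in either group are not drawn. In TCRKO and CD8KO against WT the interferon-gamma medians, -0.91 and -0.74, lie below those of the set, -0.05 and 0.10.

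The mean levels of both lists were also set against each other within each library, where they share depth and scaling factor. The mean log2(CPM + 1) of the set minus that of the interferon-gamma list was 0.99 to 1.06 in the 3 TCRKO libraries and 0.71 to 0.89 in the 3 labelled CD8KO. It was -0.10 to 0.38 in WT, 0.13 to 0.45 in Tie2Cre, -0.14 to 0.15 in CD4KO and -0.77 to 0.51 in Tie2Cre_H2Abf. Every TCRKO and CD8KO library thus stood above the other 14. The set itself had group means of 5.19 ± 0.34 (SD) in WT, 5.35 ± 0.08 in CD8KO, 5.03 ± 0.33 in Tie2Cre, 5.47 ± 0.20 in CD4KO, 5.25 ± 0.11 in TCRKO and 5.29 ± 0.32 in Tie2Cre_H2Abf. The lowest CD8KO library, at 5.28, lay above the highest of Tie2Cre, at 5.25, and the other pairs of groups overlapped. The interferon-gamma list had 4.99 ± 0.39, 4.53 ± 0.08, 4.75 ± 0.21, 5.41 ± 0.03, 4.23 ± 0.15 and 5.47 ± 0.49 in the same order. These are descriptions of lists chosen with results of the data known, and no test was made of them.

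**Figure D5:**
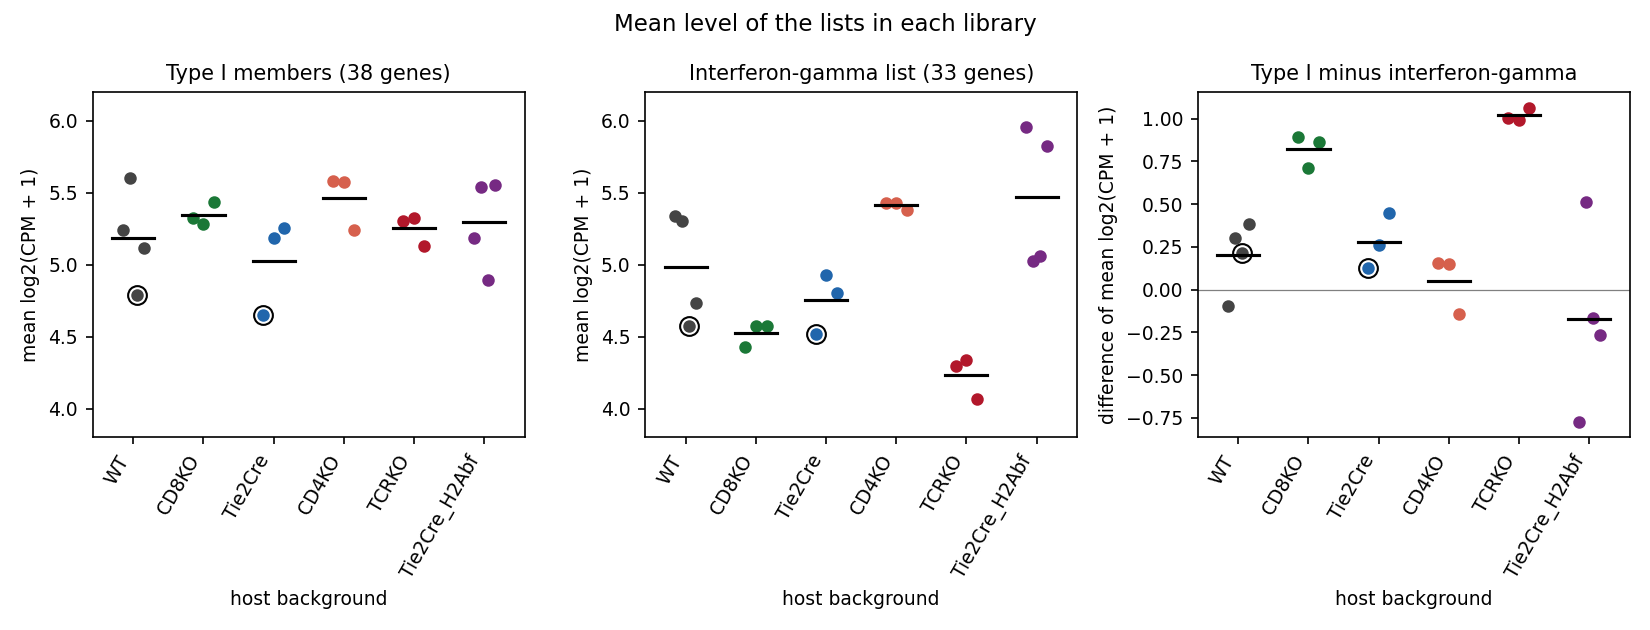
Mean log2(CPM + 1) of the 38 genes, of the 33 genes of the interferon-gamma list and their difference, 1 point a library, with the group mean as a bar and the satellite-rich libraries ringed. The set's groups overlap except for CD8KO and Tie2Cre, and the difference is 0.71 or more in each TCRKO and CD8KO library and 0.51 or less in every other.

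The interferons themselves were at or near 0. Ifnb1 and Ifng had 0 counts in all 20 libraries, and Ifna1, Ifna2, Ifna4, Ifna5, Ifne and Ifnk had at most 13 counts each over all libraries. The receptor chains were present, with Ifnar1 at 8.08 to 82.6 CPM and Ifnar2 at 11.5 to 48.2, and so were Jak1 (40.2 to 205) and Tmem173 (44.5 to 142), the adaptor STING of the DNA-sensing route. Tyk2, Irf3, Mavs, Tbk1 and Ikbke had medians of 4.04 to 12.0 CPM, and each was at 0 in some library. Mb21d1 had a median of 0.76 CPM and 121 counts over all libraries. Of the 20 genes of the type I pathway list 13 were tested, and edgeR called 0 of them in any of the 6 comparisons, with 0 to 2 a comparison at an unadjusted p under 0.05, where 6.88% to 10.5% of all genes had one. Of the 4 genes of the interferon-gamma pathway, Ifngr1 stood at 9.85 to 62.9 CPM, Ifngr2 at 0 to 40.3 and Jak2 at 2.27 to 32.2.

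Changes were also set out by the ISRE core in the promoter window, for the 13 genes with it, the 16 without it and the 9 with no promoter entry. By CD4 status the medians were 0.00 with the core (6 above 0, 7 below), 0.14 without it (13 and 3) and 0.20 with no entry (7 and 2). In CD4KO against WT they were 0.25 (11 and 2), 0.20 (11 and 5) and 0.27 (7 and 2). In TCRKO against WT they were -0.17 (6 and 7), 0.02 (8 and 8) and -0.30 (4 and 5). Genes with the core thus had the higher median of the first 2 classes in CD4KO and the lower one by CD4 status and in TCRKO. In CD8KO against WT the medians were 0.19 (7 and 6), 0.11 (10 and 6) and -0.19 (4 and 5). In Tie2Cre against WT they were -0.03 (6 and 7), -0.07 (7 and 9) and -0.69 (1 and 8), and in Tie2Cre_H2Abf against Tie2Cre 0.16 (8 and 5), 0.27 (11 and 5) and 0.48 (6 and 3). No test was made of differences between these classes.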

How the data were processed

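The authors used bcl2fastq 2.17, STAR, RSEM 1.2.28 and DESeq2 with build GRCm38, per the submitters' processing notes. The annotation release and the version of STAR are not given in the sources used here. In 1 table a library the authors deposited expected counts (RSEM's estimated counts, not normalized) and TPM values (per length and depth). Of the expected counts 4.45% were not whole, and all were rounded. GENCODE gave symbols for 46488 of 46983 IDs; Mb21d1 is named Cgas in newer tables.

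The test was edgeR 4.0.16's quasi-likelihood test in R 4.3.3 (robust, TMM, filterByExpr by background, 14876 genes, Benjamini-Hochberg, threshold 0.05), with a 6-group model and a 2-group model for CD4 status. The common biological coefficient of variation was 0.995 and 1.08, and TMM factors ran from 0.523 to 3.69. The SE given with an edgeR log2 change is the size of the change divided by the square root of the test's F statistic. Scripts were tested on simulated data. DESeq2 1.42.0 and limma 3.58.1 (voom with sample weights), RLE scaling, filters, fewer groups, number ranges and leaving out libraries were alternatives. Others were chosen after seeing the data. These were leaving out both satellite-rich libraries, and a new fit on protein-coding genes only (12349 genes tested). That fit also left out satellite-like gene models, ribosomal protein genes and genes of the mitochondrial genome.

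The genes and lists were chosen with earlier results of these data known. Per-library values are given for the 4 genes with the smallest p (mean of at least 1 CPM) in each comparison and for the gene with the highest mean TPM in each role. Members without a promoter entry were Dhx58, Mx1, Mx2, Oas2, Parp14, Parp9, Rtp4, Usp18 and Zbp1.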

Additional observations from a re-analysis of the deposited data

Results flagged for a closer look

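Single libraries stood far from the rest of their group in 13 of 96 sets of values tested with Dixon's rule. The sets covered the genes given by library, the mean levels of both lists and their difference. By chance about 5% of such sets would show one if values were normally distributed within a set. The sets by CD4 status pool 3 backgrounds each, so that share is only a rough guide. Backgrounds with 3 libraries (CD8KO, Tie2Cre, CD4KO and TCRKO) were left out and were not tested alone. The sets were WT, Tie2Cre_H2Abf and the 2 classes by CD4 status. Within a background, Oas1a was high in WT_9748 (39.1 CPM), Dtx3l low in Tie2Cre_H2Abf_9583 (37.6 CPM), and Ifit3 (45.5 CPM) and Oasl2 (196 CPM) high in Tie2Cre_H2Abf_9589. Over the 10 libraries classed as CD4-competent, the highest library stood apart for Eif2ak2 (162 CPM, Tie2Cre_9501), Ifit3 (80.3 CPM, CD8KO_9752), Irf7 (629 CPM, WT_9748), Samd9l (85.6 CPM, Tie2Cre_9504) and Zbp1 (63.3 CPM, WT_9749). Over the 10 classed as CD4-deficient, CD4KO_9768 stood apart for Herc6 (48.9 CPM), Ifit2 (57.0 CPM), Oas3 (204 CPM) and Xaf1 (36.2 CPM). That library had 3320306 counts in all, of which 1.86% lay in satellite-like gene models, and its share in these values was not tested.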

How the results depend on the processing

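The number of genes of the set called in each comparison and the log2 changes of the genes with the smallest p were recomputed under each alternative. In the main fits all these counts were 0 and all these genes had an edgeR adjusted p of 0.466 or more. None was thus near the threshold of 0.05, and staying on the same side of it says little. Of the 520 recomputed values 518 kept their direction and their side of the threshold, and 0 reversed. The medians of the lists are not among them, and the set's median changed sign in TCRKO and in CD8KO against WT. The exceptions were both from DESeq2 in TCRKO against WT, where 1 gene of the set was called in place of 0, namely Dtx3l; the cause was not tested. The count of genes called stayed at 0 with each library left out in turn and in both settings chosen after seeing the data. RLE scaling moved the median of all genes by more than 0.1 on the log2 scale in CD4KO (-0.08 to -0.21), TCRKO (-0.20 to -0.32) and CD8KO (-0.18 to -0.37) against WT and in Tie2Cre_H2Abf against Tie2Cre (-0.24 to -0.43), so medians of lists are best read against it. Over all settings the median of the set ran from 0.01 to 0.20 by CD4 status, 0.17 to 0.38 in CD4KO, -0.14 to 0.10 in TCRKO, -0.10 to 0.30 in CD8KO and -0.31 to -0.06 in Tie2Cre, all against WT, and from 0.00 to 0.31 in Tie2Cre_H2Abf against Tie2Cre. That of the interferon-gamma list ran from 0.05 to 0.45 by CD4 status, 0.21 to 0.48 in CD4KO, -1.02 to -0.70 in TCRKO, -0.92 to -0.51 in CD8KO, -0.43 to -0.08 in Tie2Cre and 0.45 to 0.91 in Tie2Cre_H2Abf. With 3 or 4 libraries a group the SE was near 0.50. A change of 1 on the log2 scale in a single gene was then about 2 SE and may go undetected. Larger changes can also be missed. Gbp2 in TCRKO against WT, at -1.94 ± 0.40, had an edgeR adjusted p of 0.103. In the simulated data 20% to 31% of the genes changed 4-fold were called in the pairwise comparisons, and 93% by CD4 status. The simulation changed 200 genes and took the spread from the trend over all genes. It held no differences between backgrounds of a class, so its rates may not hold for the set. A count of 0 genes called in a pairwise comparison does not exclude changes of that size. No paired analysis was possible because each library number is used once.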
